A study of Mus musculus with 24 samples.

Results

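Liver messenger RNA was compared between 2 groups of male mice of 16 weeks that the labels give almost the same amount of food. One group was Ercc1 d/- and fed freely, with an average intake of 2.3 g a day, and the other was Ercc1 +/+ and kept on 30% dietary restriction, with 2.1 g a day, a difference of 0.2 g. These 4 and 4 libraries were taken by their titles and are 8 of the 24 in the series. The series also holds freely fed wild-type mice (3.0 g a day) and restricted mutants (1.6 g a day) of the same age. Its other 2 groups are freely fed mutants of 7 weeks and freely fed wild types of 104 weeks, with 4 libraries each. Libraries of these 2 ages are not compared here but entered the fit to all 24 libraries. All mice were F1 hybrids of the strains C57BL6J and FVBN and were housed one to a cage. The mutant carries the d allele of Ercc1, which encodes a truncated protein, beside a null allele in every cell. In the restricted groups food was lowered by 10% at 7 weeks and in further 10% steps to 30% from 9 weeks, and the ration was given just before the dark phase (Zeitgeber time 12). On the day of sacrifice no food was given before the liver was taken. Genotype and feeding schedule therefore both differed between the groups compared and cannot be told apart in this contrast. The labels leave out the hour of collection and the body weights. Samples are numbered within a group but not described as separate animals. Unless a fit to the 8 libraries is named, the p-values below reflect the variation within groups, estimated over all 6 groups of the series. That variation may be technical.

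ERCC1 forms an endonuclease with XPF that cuts DNA in nucleotide excision repair and in the repair of crosslinks between strands, and mice with little of it accumulate DNA damage in liver. The rodent liver differs strongly between the sexes: pulses of growth hormone keep up the expression of male-type genes, such as those for major urinary proteins, and hold down female-type genes. Dietary restriction with 1 meal a day changes both the amount of food and the hours in which it is eaten, which the liver follows through its fasting, feeding and clock genes.

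The libraries held 13.5 to 20.0 M counted reads. Transcripts of the mitochondrial genome made up 9.37% to 10.9% of reads in the mutant and 12.5% to 16.9% in the restricted wild type, and albumin 5.36% to 6.65% and 8.88% to 12.0%. The 10 tested hepatocyte markers summed to 100643 to 123138 CPM (reads per 1 M, on scaled library sizes) in the mutant and 136886 to 176855 CPM in the restricted wild type. Albumin made up on average 61091 and 104393 CPM of these sums. Of the 10 markers 1 was called higher and 2 lower in the mutant, with a median log2 fold change of 0.01. Along the first principal component of the 16 libraries of this age (44.2% of the variance over the 500 most variable genes) the freely fed mutants scored 24.2 to 28.4, next to the freely fed wild types. The restricted wild types scored -34.25, -11.3, -21.1 and -27.9, a wide spread with library 2 nearest to the freely fed animals. On the second component (31.35%) the mutants on either diet scored 16.3 to 25.95 and the wild types -24.1 to -17.65. The 2 groups compared thus differed on both axes.

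**Figure D1:**
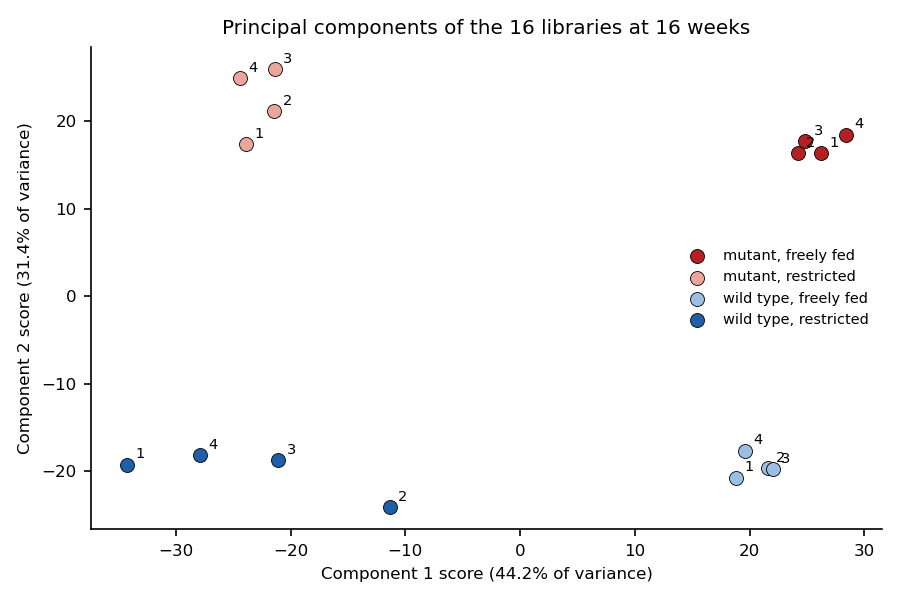
Scores of the 16 libraries of 16 weeks on the first and second principal components, with the share of variance on each axis and the library number beside each point. The freely fed mutants lie at the top right and the restricted wild types at the bottom left, with restricted wild-type library 2 at -11.3 on the first component.

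Ercc1 itself was lower in the mutant. Its level was 2.08, 1.08, 1.42 and 1.46 CPM in the 4 mutant libraries and 4.46, 2.15, 3.66 and 3.80 CPM in the restricted wild types. All mutant values lay under all wild-type values, with a log2 fold change of -1.22 ± 0.27 (SE; edgeR adjusted p = 0.00213). Counts on this gene cannot separate the d allele from other transcripts of the locus.

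Fitted with edgeR to all 24 libraries, 2635 of 12690 tested genes (20.8%) passed an adjusted p of 0.05, of which 1447 (11.4%) were higher and 1188 (9.36%) lower in the mutant. Among them 739 higher and 436 lower genes exceeded 1 on the log2 scale. The values of the groups did not overlap in 2478 genes (19.5%), and 1907 genes both passed the test and did not overlap. In 8092 genes (63.8%) the 95% interval of the difference lay within 1 log2 unit of 0. Over all genes the median log2 fold change was -0.04. The lists below are read against this value and against the shares of all genes called, 11.4% higher and 9.36% lower. For 1942 of the 2635 called genes (73.7%) the mean of the freely fed wild type lay between the 2 groups, for 317 (12.0%) it lay beyond the restricted wild type and for 376 (14.3%) beyond the mutant.

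**Figure D2:**
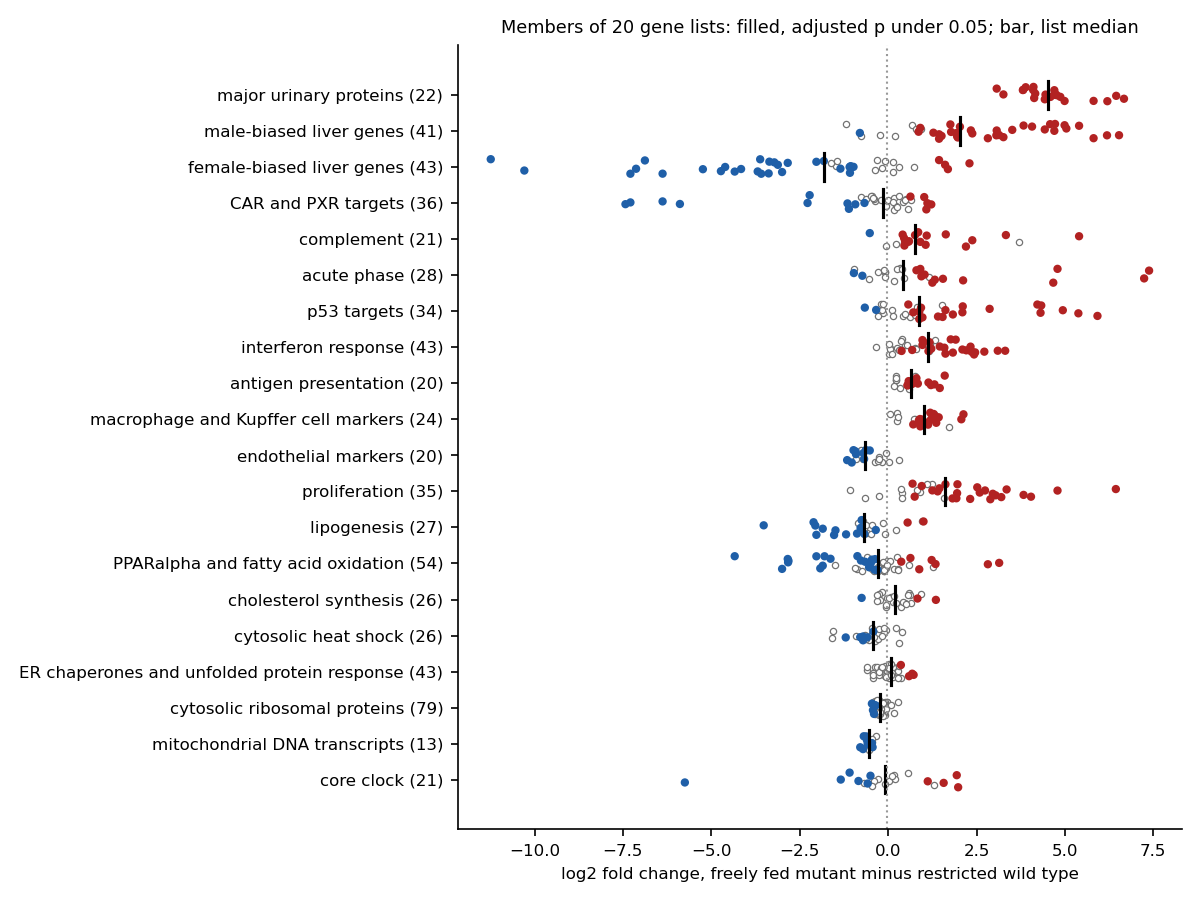
Log2 fold changes of the tested members of 20 gene lists, freely fed mutant minus restricted wild type, with the number of members in brackets. Filled points passed an adjusted p of 0.05 (red higher, blue lower), bars are list medians and the dotted line is the median of all genes, -0.04. Major urinary protein, male-biased, proliferation, interferon and macrophage lists lie to the right, and female-biased, lipogenesis and endothelial lists to the left.

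Genes that differ between male and female liver were among those with the largest differences. All 22 measured major urinary protein genes, which encode pheromone carriers secreted into urine, were higher in the mutant, by 3.07 to 6.67 on the log2 scale (median 4.52). Their summed level was 31588 to 47115 CPM in the mutant and 563 to 5151 CPM in the restricted wild type. Mup20, which encodes the male pheromone darcin, stood at 9093, 7036, 7383 and 9732 CPM in the mutant and at 80.7, 328, 86.1 and 99.7 CPM in the restricted wild type. No values overlapped, and the highest wild-type value was that of library 2. Its log2 fold change was 5.81 ± 0.47 (SE; edgeR adjusted p = 1.41e-08), and 6.54 without restricted wild-type library 2. Among the other genes with the largest rises were Mup6 (log2 fold change 6.67), Mup8 (6.45) and Mup13 (6.20), the last pair at 7.82 and 7.52 without that library. In a replicate block fitted to the 8 libraries alone, Mup8 and Mup13 did not pass (edgeR adjusted p = 0.066 and 0.0742). Of the 22 genes 16 passed in the fit to the 8 libraries without a block, and DESeq2 called each of the 17 for which it gave an adjusted p. Mup genes are near-identical copies that may share reads, so single members are uncertain while the sum is less so.

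Of 41 male-biased genes tested, among them some Mup genes, 33 were higher and 1 was lower, with a median of 2.03. Leaving out 1 library at a time gave 32 to 35 higher, while the 1 lower call went to 0 without mutant library 2, 3 or 4 or restricted wild-type library 1 or 4, and to 2 without mutant library 1. Elovl3, an elongase of very long fatty acids, was 78.2, 141, 70.6 and 106 CPM in the mutant and 0.237, 3.80, 0.385 and 0.190 CPM in the restricted wild type. Hsd3b5, a steroid reductase of male liver, was 93.4, 66.7, 84.3 and 59.4 CPM against 0.901, 6.09, 1.99 and 0.570 CPM. In both genes the groups were far apart and restricted wild-type library 2 was again the highest of its group. The log2 fold changes were 6.53 ± 0.76 for Elovl3 and 5.04 ± 0.48 for Hsd3b5, and 8.48 and 6.05 without that library. Susd4, a membrane protein with complement control domains, differed by 3.83 ± 0.24.

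Female-biased genes went the other way, with 28 of 43 lower and 4 higher (median -1.82). Fmo6, of the flavin monooxygenase family, was 0.189, 0.114, 0.712 and 0.318 CPM in the mutant, and the lowest restricted wild-type library was at 25.3 CPM. The groups did not overlap, and the log2 fold change was -6.67 ± 0.41 (edgeR adjusted p = 2.53e-10), or -7.30 without mutant library 3. The sulfotransferase genes Sult3a2 and Sult3a1 had 0 and 2 reads over the 4 mutant libraries against 1158 and 3009 in the restricted wild type. Set against 3 reads over the group, Sult3a2 was at least 367-fold lower, and Sult3a1 was lower 1432-fold with a 95% counting interval of 396 to 11833 that covers counting error only. A1bg, a plasma glycoprotein, was lower by 6.88 on the log2 scale (adjusted p = 0.000275). Its restricted wild-type values were scattered, at 25.9, 22.1, 385 and 140 CPM, and the difference was -5.69 without restricted wild-type library 3 and -7.53 without mutant library 1.

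The Cyp2b genes named here encode cytochromes P450 and were close to 0 in the mutant. Among them, Cyp2b10 is induced by the nuclear receptor CAR. Cyp2b10 was 0.189, 0.570, 0.499 and 0.699 CPM in the mutant and 123, 50.2, 83.6 and 86.4 CPM in the restricted wild type, with means of 23.8 CPM in the freely fed wild type and 25.0 CPM in the restricted mutant. Its log2 fold change was -7.43 ± 0.59 (edgeR adjusted p = 1.37e-08). Cyp2b13 (-7.29 ± 0.50), Cyp2b9 (-6.38 ± 0.58) and Cyp2b23 (-5.89 ± 0.45) had similar differences, though these copies may share reads. Cyp2c39, another P450, was 63.0, 59.4, 62.9 and 54.5 CPM against 781, 576, 529 and 612 CPM (-3.38 ± 0.22), and Cyp2c38 and Cyp2c29 were lower by 3.59 and 2.28 on the log2 scale. In the whole CAR and PXR list 10 of 36 genes were lower and 5 higher, or 8 higher without restricted wild-type library 2, with a median of -0.14.

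Setting each group against the freely fed wild type showed on which side these differences lay, as values side by side because both comparisons use the same control libraries. The mutant differed from that control in 9.94% of all genes and the restricted wild type in 13.6%. Of the 22 Mup genes 2 were called higher in the mutant and 22 lower in the restricted wild type. Male-biased genes were higher in 13 and lower in 4 of 41 in the mutant, and higher in 1 and lower in 31 under restriction. For female-biased genes the counts were 4 higher and 18 lower of 43 in the mutant, and 18 higher and 4 lower under restriction. Mup20 was 2.04 ± 0.39 above the control in the mutant and fell by 3.77 on the log2 scale with restriction, whereas Elovl3 differed by 0.05 ± 0.55 in the mutant and by -6.48 ± 0.76 with restriction.

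**Figure D3:**
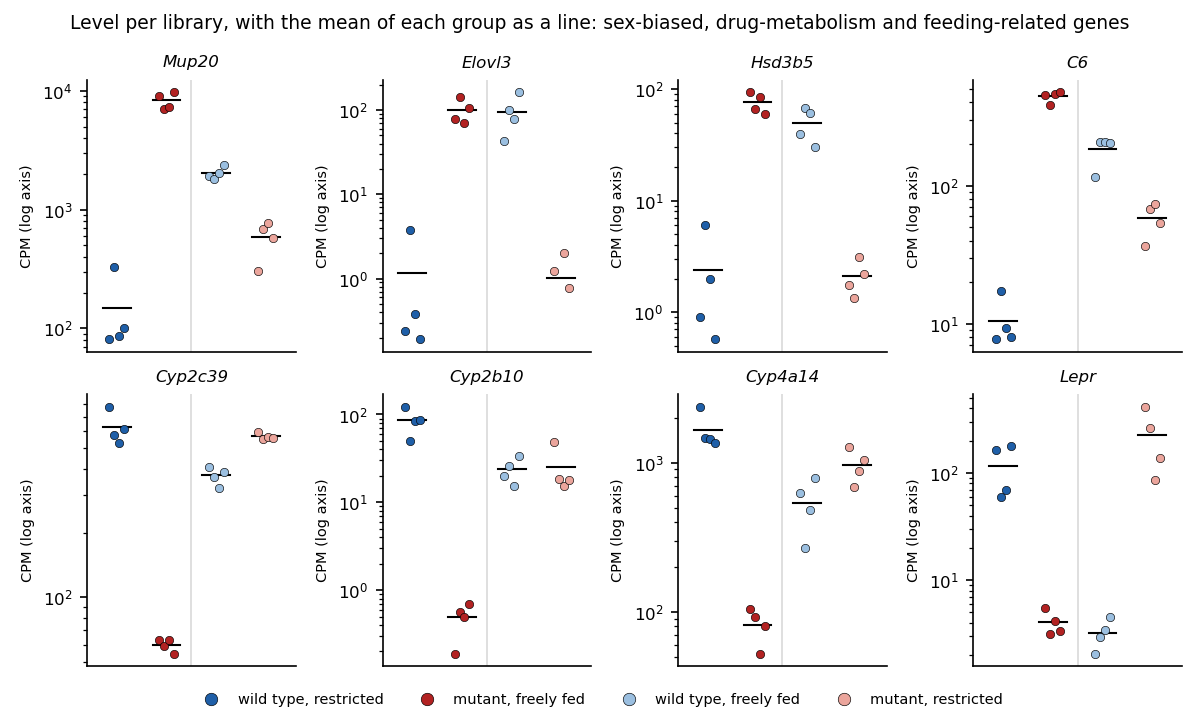
Level of 8 genes in CPM on log axes in each library of 16 weeks, with the mean of each group as a line; the 2 groups compared are left of the grey line and the other groups of that age right of it. Mup20, Elovl3, Hsd3b5 and C6 were high in the freely fed mutant and Cyp2c39, Cyp2b10, Cyp4a14 and Lepr in the restricted wild type. A restricted mutant library with 0 CPM of Elovl3 is not drawn on the log axis.

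Complement genes, which encode plasma proteins that mark and lyse microbes, were higher in 16 of 21 and lower in 1 (median 0.76), and in 14 to 16 on leaving out 1 library at a time. The components of the terminal, pore-forming complex differed most. C6 was 450, 385, 462 and 473 CPM in the mutant and 7.69, 17.2, 9.25 and 7.98 CPM in the restricted wild type, with 183 CPM on average in the freely fed wild type. The groups were 42.2-fold apart, a log2 difference of 5.40 ± 0.27 (edgeR adjusted p = 1.64e-12). C9 was 10.0-fold higher in the mutant (3.33 ± 0.19) and C4bp, an inhibitor of the classical pathway, 3.09-fold (1.63 ± 0.11). C6 also belongs to the male-biased list. In comparison with the freely fed wild type, 6 complement genes were higher in the mutant, and 10 were lower and 1 higher in the restricted wild type. The summed level of the list overlapped between the groups, at 17109 to 25013 CPM in the mutant and 16825 to 19102 CPM in the restricted wild type. The 1 member called lower was C3, the central component, at -0.52 on the log2 scale.

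Acute-phase genes, which the liver switches on in inflammation, were higher in 12 of 28 and lower in 2, or in 1 without mutant library 1, 2 or 3 or restricted wild-type library 1, 2 or 4 (median 0.41). Saa1, which encodes serum amyloid A, was 1029, 71.9, 97.4 and 2109 CPM in the mutant and 1.71, 9.17, 2.57 and 8.74 CPM in the restricted wild type. Its levels in the mutant spread widely, with libraries 1 and 4 far above 2 and 3, yet none overlapped the wild-type values. The log2 fold change was 7.24 ± 1.51 (edgeR adjusted p = 0.00198), 6.19 without mutant library 4, and in the replicate block on the 8 libraries alone it did not pass (adjusted p = 0.0985). Saa2 differed by 7.38 ± 1.60, by 6.43 without mutant library 4, by 7.97 in the replicate block on 24 libraries, and did not pass in the block on 8 libraries (adjusted p = 0.119). Saa4 was higher by 2.12 ± 0.43 and Hpx, the heme-binding hemopexin, by 0.91 ± 0.20. Saa1 and Saa2 are near-identical copies that may share reads. Of the freely fed wild types, library 2 had 594 CPM of Saa1 and the others 27.9 to 116 CPM.

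Genes induced by interferon were higher in the mutant in 23 of 43 and lower in none, with a median of 1.14, and leaving out 1 library at a time gave 20 to 25. Irf7, the transcription factor that amplifies the interferon response, was 64.3, 41.0, 42.4 and 44.3 CPM in the mutant and 7.69, 7.88, 6.68 and 6.84 CPM in the restricted wild type. The groups did not overlap, and the log2 fold change was 2.72 ± 0.21 (edgeR adjusted p = 1.48e-09). Zbp1, a sensor of left-handed nucleic acid, was 8.94, 5.76, 10.2 and 9.47 CPM against 0.712, 1.22, 1.41 and 0.697 CPM (3.10 ± 0.32). Bst2, the tetherin that holds budding virus at the cell surface, was 248, 205, 200 and 212 CPM against 104, 92.3, 107 and 89.3 CPM (1.14 ± 0.13). Isg15, a ubiquitin-like modifier, was 23.6, 11.5, 10.7 and 15.6 CPM against 3.27, 3.30, 11.6 and 4.24 CPM, so that restricted wild-type library 3 lay within the mutant range. Its difference of 1.46 ± 0.45 (adjusted p = 0.0226) was 2.09 without that library. It did not pass without mutant library 1 (adjusted p = 0.0802) or restricted wild-type library 1, 2 or 4 (0.0732, 0.0624 and 0.0671), nor in the replicate block on 8 libraries (0.0594). Set beside the freely fed wild type, 22 genes of the list were higher in the mutant, while 1 was higher and 3 were lower in the restricted wild type.

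The interferon-stimulated response element, a promoter motif of genes that interferon induces, contains GAAANNGAA. RefSeq promoter windows on GRCm38.p6, from 250 bases before to 50 after the start of transcription, could be matched for 30 of the 43 tested interferon genes. The motif was present on either strand in 18 of these 30 (60%) and in 2638 of 27025 genes with a window (9.76%). Of the 18 with the motif 8 were higher in the mutant (median log2 fold change 1.15), and of the 12 without it 7 (median 0.91). The 50 upstream bases around the matches are shown for 6 genes, picked after their values were seen because they hold 2 or 3 overlapping or neighbouring matches close to the start. Capitals mark matches on either strand, and each stretch reads 5′ to 3′ along its gene.
Oas1a, chr5:120907526-120907575, minus strand: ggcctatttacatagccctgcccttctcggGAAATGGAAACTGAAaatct
Oas1g, chr5:120887614-120887663, minus strand: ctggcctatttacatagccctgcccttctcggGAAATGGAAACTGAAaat
Gbp3, chr3:142559982-142560031, plus strand: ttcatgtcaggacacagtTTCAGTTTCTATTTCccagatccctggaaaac
Isg15, chr4:156200862-156200911, minus strand: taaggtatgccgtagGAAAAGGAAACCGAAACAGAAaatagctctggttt
Bst2, chr8:71537571-71537620, minus strand: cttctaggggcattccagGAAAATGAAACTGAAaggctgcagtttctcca
Ifit1, chr19:34640772-34640821, plus strand: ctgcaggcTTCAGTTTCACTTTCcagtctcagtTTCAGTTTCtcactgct
The antiviral oligoadenylate synthetases Oas1a and Oas1g, whose stretches are nearly the same, were higher by 2.46 ± 0.32 and 2.43 ± 0.30, and the guanylate-binding protein Gbp3 by 2.21 ± 0.28. Ifit1, with 3 matches, was 11.3, 4.96, 5.34 and 6.29 CPM in the mutant and 0.712, 2.94, 3.98 and 3.74 CPM in the restricted wild type. Its groups did not overlap, but the difference of 1.32 ± 0.52 did not pass (edgeR adjusted p = 0.0753). A match of these letters is a description of the window and was not tested as a binding site.

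Antigen presentation genes were higher in 12 of 20 and lower in none (median 0.64), and in 8 to 11 on leaving out 1 library at a time. Psmb8, a catalytic subunit that the immunoproteasome uses in place of a standard one, was 45.4, 39.9, 47.8 and 43.0 CPM in the mutant and 13.9, 15.3, 16.9 and 12.0 CPM in the restricted wild type, 3.04-fold apart (log2 fold change 1.60 ± 0.15, edgeR adjusted p = 2.02e-08). Psmb9 and Psmb10, the other catalytic subunits of that particle, were higher by 1.46 and 0.80. They are among the 7 of 37 proteasome genes called higher, or 4 without restricted wild-type library 1, in a list whose median was 0.11. Tapbp, the tapasin that loads peptides onto class I molecules, was higher by 0.76 ± 0.11 and the non-classical class I gene H2-T23 by 0.55 ± 0.09.

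Markers of macrophages and Kupffer cells were also more often higher than lower in the mutant. Of 24 tested markers 16 were higher in the mutant, or 10 without restricted wild-type library 1, and none lower (median 1.02). Their summed level was 265 to 476 CPM in the mutant and 121 to 219 CPM in the restricted wild type. In the freely fed wild type it was 156 to 245 CPM and in the restricted mutant 364 to 514 CPM, so that the mutants on either diet lay above the wild types. Mpeg1, a pore-forming protein of phagocytes, was 40.7, 45.3, 48.1 and 80.5 CPM against 6.26, 10.7, 16.6 and 15.6 CPM (2.13 ± 0.33), and C1qb, a complement subunit made by macrophages, differed by 1.25 ± 0.20. Cd68 was 7.30, 5.98, 3.85 and 5.08 CPM against 1.57, 3.15, 2.83 and 2.28 CPM (1.19 ± 0.24, edgeR adjusted p = 0.000711; 0.0558 in the replicate block on 8 libraries). In bulk tissue, more cells of a type and more RNA per cell cannot be told apart. Itgam had 0 reads in both groups and Cx3cr1 21 and 5, too few to test. The part of these cells in the interferon and antigen presentation results was not tested.

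Lymphoid transcripts were sparse. Of 16 B and plasma cell markers 7 could be tested and 3 were higher in the mutant, with 5 higher without mutant library 3 and 1 without mutant library 4. Their sum was 3.63 to 18 CPM in the mutant and 2.41 to 3.53 CPM in the restricted wild type. Ighg1, an immunoglobulin heavy chain, was 3.02, 0.228, 0.427 and 2.99 CPM against 0.237, 0, 0 and 0.127 CPM, values that touch between groups (log2 fold change 3.92 ± 0.85; 5.01 without restricted wild-type library 1). Igkc, the kappa light chain, differed by 2.02 ± 0.54, and by 1.06 without mutant library 4, where it did not pass (edgeR adjusted p = 0.118). In the fits to the 8 libraries alone it did not pass either (adjusted p = 0.0714, and 0.157 with a replicate block). Only 3 of 18 T and NK cell markers could be tested, at a sum of 1.82 to 2.67 CPM against 0.617 to 1.72 CPM, and 1 of them was higher, or 2 without mutant library 4 or restricted wild-type library 2.

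Targets of p53, the transcription factor activated by DNA damage, were higher in 19 of 34 (median 0.88), and in 15 to 18 on leaving out 1 library at a time. Of the list 2 were lower, a number that went to 0 or 1 without mutant library 2, 3 or 4 or restricted wild-type library 1, 2 or 4. Ccng1, cyclin G1, was 66.5, 34.4, 40.7 and 44.9 CPM in the mutant and 12.2, 12.3, 14.8 and 21.5 CPM in the restricted wild type, 3.06-fold higher without overlap (log2 fold change 1.62 ± 0.22, edgeR adjusted p = 6.78e-06). Gdf15, a stress-induced hormone that curbs appetite, was 44.5, 19.4, 12.3 and 17.9 CPM against 4.22, 3.58, 7.64 and 6.53 CPM (2.10 ± 0.41). Gtse1, which binds microtubules and restrains p53, differed by 4.33 ± 0.50, or 5.10 without restricted wild-type library 2. Ckap2, a mitotic spindle protein, had 145 reads in the mutant libraries and 2 in the restricted wild type, both in library 2, a ratio of 76.2 with a 95% counting interval of 20.7 to 635.

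Cdkn1a, the cell-cycle inhibitor p21 and a classical p53 target, was 54.3, 16.1, 24.2 and 14.6 CPM in the mutant and 5.60, 10.0, 11.2 and 11.2 CPM in the restricted wild type. The groups did not overlap, but mutant library 1 alone stood far above the rest and the difference of 1.53 ± 0.56 did not pass (edgeR adjusted p = 0.0574). It passed without mutant library 4 (1.73, adjusted p = 0.0478), with only the 8 libraries in the fit (0.0318) and by DESeq2 (0.0384). Mdm2, the ubiquitin ligase that limits p53, was 45.6, 30.6, 33.4 and 36.8 CPM against 23.6, 23.4, 24.5 and 37.1 CPM. Restricted wild-type library 4 lay within the mutant range, and the difference of 0.43 ± 0.19 (adjusted p = 0.117) was 0.62 without it (0.0311). Against the freely fed wild type, 15 p53 targets were higher and 1 was lower in the mutant, and 7 were lower in the restricted wild type. Genes of nucleotide excision repair, the pathway that Ercc1 serves, showed 3 of 30 higher and 2 lower with a median of 0.04, and 6 higher without mutant library 1 or 1 lower without mutant library 2 or 4. Their called share was 16.7%, against 20.8% of all genes. Ercc1 was one of those lower, and Ercc3, a helicase of the repair and transcription factor TFIIH, was higher by 0.81 ± 0.12. Among 13 tested senescence and secretory genes 4 were higher and none lower. They included the chemokine Cxcl1, at 10.9, 3.08, 5.13 and 16.0 CPM against 0.332, 0.501, 0.706 and 0.380 CPM (4.20 ± 0.59).

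Cell-cycle genes were higher in 24 of 35 and lower in none (median 1.62), and in 20 to 27 on leaving out 1 library at a time, although levels were low. Mcm5, a subunit of the replicative helicase, was 5.29, 9.17, 10.0 and 11.3 CPM in the mutant and 0.617, 0.788, 1.35 and 0.760 CPM in the restricted wild type, 10.2-fold apart (log2 fold change 3.35 ± 0.41, edgeR adjusted p = 2.29e-06). E2f1, a transcription factor of entry into S phase, differed by 2.59 ± 0.35 and Ube2c, an enzyme of mitotic exit, by 2.89 ± 0.41. Set against the freely fed wild type, 3 of the list were higher in the mutant and 16 were lower in the restricted wild type. The summed level of the list was 169 to 277 CPM in the mutant and 104 to 168 CPM in the restricted wild type.

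**Figure D4:**
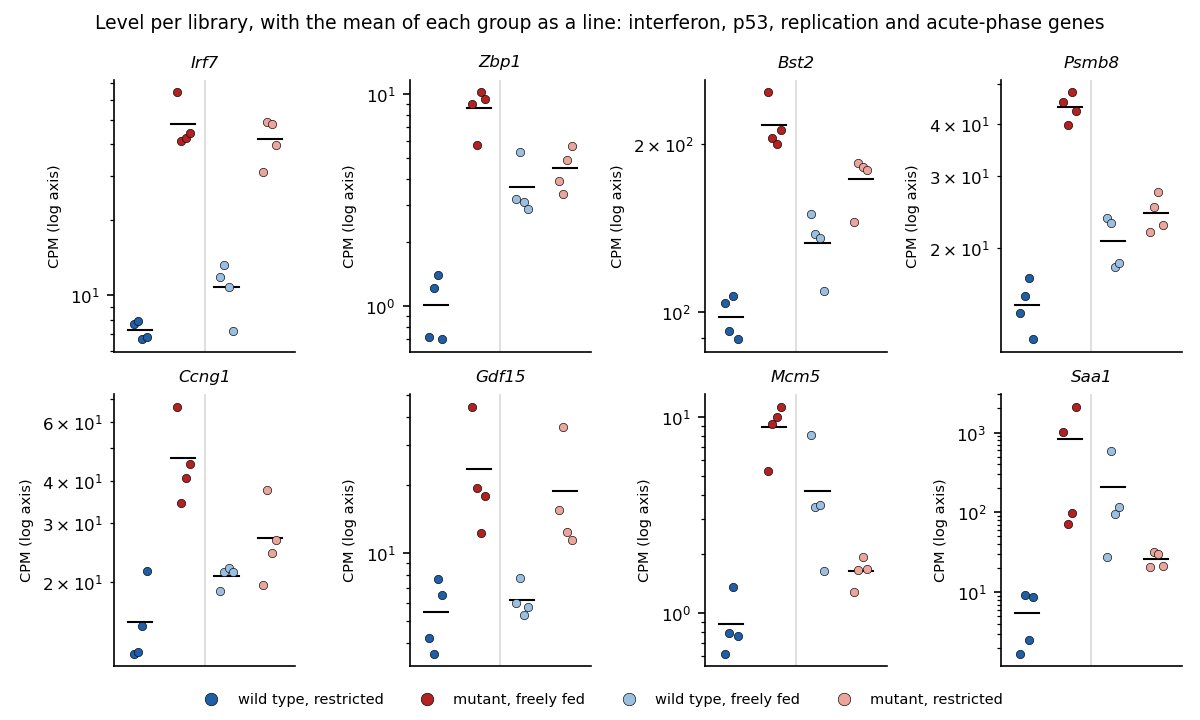
Level of 8 genes in CPM on log axes in each library of 16 weeks, with the mean of each group as a line; the 2 groups compared are left of the grey line. Irf7 was high in mutants on either diet, Saa1 was below 10 CPM in each restricted wild-type library, and Psmb8 was highest in the freely fed mutant (39.9 to 47.8 CPM).

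Genes of fat oxidation and of fat synthesis were both lower more often than higher. Targets of PPARα, the nuclear receptor of the fasting liver, and genes of fatty acid oxidation were lower in 19 of 54 and higher in 7 (median -0.30). Cyp4a14, a P450 that hydroxylates fatty acids, was 104, 91.9, 52.4 and 80.1 CPM in the mutant and 2374, 1471, 1450 and 1359 CPM in the restricted wild type. The log2 fold change was -4.34 ± 0.54 (edgeR adjusted p = 7.55e-06), with the freely fed wild type between them at 539 CPM. Acot2, a mitochondrial acyl-CoA thioesterase, was lower by 2.83 on the log2 scale. Cpt1a, which carries fatty acids into mitochondria, was higher in the mutant, at 265, 302, 266 and 350 CPM against 205, 178, 75.6 and 182 CPM (0.88 ± 0.21). Cyp4a12a and Cyp4a12b, P450s of the same family that are male-biased, were also higher, by 3.14 ± 0.22 and 2.82 ± 0.21, while both groups lay under the freely fed wild type. Cyp4a, Acot and Scd genes have near-identical copies that may share reads. Compared with the freely fed wild type, 26 genes of the list were lower and 1 higher in the mutant, and 13 lower and 3 higher in the restricted wild type.

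Genes of fatty acid synthesis were lower in 13 of 27 and higher in 2 (median -0.68), with 8 lower without mutant library 4 and 1 higher without restricted wild-type library 4. Their summed level was 3288 to 4602 CPM in the mutant and 5381 to 8978 CPM in the restricted wild type, with no overlap. Acacb, the acetyl-CoA carboxylase at the mitochondrial membrane, was 37.8, 32.1, 39.0 and 37.7 CPM against 186, 168, 170 and 106 CPM (-2.11 ± 0.27, edgeR adjusted p = 5.57e-06). Scd1, which desaturates stearate, was 205, 273, 114 and 317 CPM against 1336, 937, 650 and 872 CPM (-2.06 ± 0.40), and 2652 CPM on average in the freely fed wild type. Fads2, a desaturase of polyunsaturated fatty acids, was higher by 1.00 ± 0.19. Fasn, fatty acid synthase, was 257, 494, 512 and 332 CPM in the mutant and 2097, 306, 1967 and 1387 CPM in the restricted wild type, where library 2 lay within the mutant range. Its difference of -1.85 ± 0.59 (adjusted p = 0.0318) did not pass without any 1 of mutant libraries 1, 2 and 4 or restricted wild-type libraries 1, 3 and 4, where it was -1.97 to -1.62. Neither did it pass without the filter on low counts (0.0554), in the replicate block on 24 libraries (0.0655) or in the fits to the 8 libraries (0.0508, and 0.176 with the block). Srebf1, the transcription factor of this pathway, was 125, 254, 293 and 174 CPM against 690, 152, 389 and 304 CPM and did not pass (-0.86 ± 0.42, adjusted p = 0.152), though it did without restricted wild-type library 2 (-1.13, adjusted p = 0.0489).

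Of 26 cholesterol synthesis genes 2 were higher and 1 lower in the mutant than in the restricted wild type (median 0.20). The called share was 11.5%, against 20.8% of all genes. The 2 higher calls became 0 without mutant library 2 or 4 or restricted wild-type library 1 or 4, 1 without mutant library 3 or restricted wild-type library 2, and 7 without restricted wild-type library 3, and the lower call was kept only without restricted wild-type library 1. Against the freely fed wild type, 9 were higher in the mutant (median 0.86) and 3 in the restricted wild type (median 0.73). The summed level of the list was 1935 to 2360 CPM in the mutant, 1402 to 2727 CPM in the restricted wild type and 1272 to 1559 CPM in the freely fed wild type. The mutant lay above the freely fed wild type without overlap, and the restricted wild type overlapped both. Sqle, squalene epoxidase, was 73.3, 60.9, 59.3 and 52.4 CPM in the mutant, 38.4, 13.9, 37.3 and 40.0 CPM in the restricted wild type and 3.56 CPM on average in the freely fed wild type. The mutant and the restricted wild type did not overlap but their difference of 0.92 ± 0.46 did not pass (edgeR adjusted p = 0.16), except with only the 8 libraries fitted (0.0424, and 0.0453 with a replicate block). Msmo1, a sterol oxidase, was higher by 1.35 ± 0.42 (adjusted p = 0.0282) and by 1.94 without restricted wild-type library 3. It did not pass without mutant library 2 or 4 or restricted wild-type library 1, 2 or 4 (0.0538 to 0.0874), without the filter (0.0526) or in the fits to 8 libraries (0.0621, and 0.0503 with the block).

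Bile acid genes changed in both directions, with 7 of 26 higher and 5 lower (median 0.01). Cyp7b1, an oxysterol hydroxylase of the alternative synthesis pathway that is male-biased, was 477, 245, 364 and 350 CPM in the mutant and 15.2, 31.4, 26.9 and 12.2 CPM in the restricted wild type (a log2 difference of 4.07 ± 0.39, edgeR adjusted p = 1.81e-07). Cyp39a1, another oxysterol hydroxylase, was 9.00, 14.6, 14.5 and 15.6 CPM against 109, 93.4, 89.3 and 119 CPM (-2.94 ± 0.24), with 18.4 CPM in the freely fed wild type and 90.6 CPM in the restricted mutant. Abcg5, which exports sterols into bile, was higher by 1.58 ± 0.20. Cyp7a1, the rate-limiting enzyme of classical bile acid synthesis, was 91.2, 71.7, 119 and 96.2 CPM against 218, 106, 36.3 and 392 CPM. Its restricted wild-type values spread on both sides of the mutant range and the difference did not pass (-0.99 ± 0.78, adjusted p = 0.39). In lipid uptake and storage 4 of 22 genes were higher and 6 lower. Vldlr, the receptor of very low density lipoprotein, was 0.0629, 0.627, 0.427 and 0.445 CPM against 9.63, 6.66, 11.2 and 11.8 CPM (-4.61 ± 0.57) and Mogat1, an enzyme of triglyceride synthesis, was higher by 2.35 ± 0.33.

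The leptin receptor gene Lepr, which liver induces in fasting, was 5.54, 3.13, 4.13 and 3.37 CPM in the mutant and 163, 59.2, 68.6 and 177 CPM in the restricted wild type, with no overlap. Its log2 fold change was -4.86 ± 0.48 (edgeR adjusted p = 3.59e-07), and the means of 3.23 CPM in the freely fed wild type and 225 CPM in the restricted mutant followed the diet. Igf1, the growth hormone-dependent growth factor, was 263, 194, 214 and 216 CPM against 177, 267, 233 and 234 CPM (-0.04 ± 0.14, adjusted p = 0.879). Igfals, which stabilises circulating IGF1, was 119 to 171 CPM against 145 to 209 CPM (-0.30 ± 0.18, adjusted p = 0.229). Ghr, the growth hormone receptor, was 248, 272, 266 and 273 CPM against 145, 313, 217 and 177 CPM (0.32 ± 0.16, adjusted p = 0.176) and passed without restricted wild-type library 2 (0.55, adjusted p = 0.00636). Both groups lay under the 417 CPM of the freely fed wild type. Igfbp1, an insulin-repressed binding protein, was 41.0, 15.8, 7.19 and 28.7 CPM against 2.89, 1.86, 19.0 and 106 CPM, too scattered to separate (-0.48 ± 1.46, adjusted p = 0.845). Fgf21, a fasting hormone of liver, was 2.20, 1.65, 0.641 and 1.27 CPM against 8.21, 2.08, 1.93 and 2.47 CPM (-1.36 ± 0.45, adjusted p = 0.0347). That difference rested on restricted wild-type library 1, without which it was -0.57 (adjusted p = 0.344). It also failed to pass without mutant library 2, 3 or 4 (0.0597, 0.109 and 0.0816) and with only the 8 libraries fitted (0.113, and 0.0729 with the block). In this list 2 of 28 genes were higher and 6 lower (median -0.32), with 3 lower without mutant library 4 and 2 without restricted wild-type library 4. The higher calls numbered 0 or 1 without any single library other than restricted wild-type library 2.

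Of 23 glycolysis genes 1 was higher and 6 were lower (median -0.38), and of 25 gluconeogenesis genes 2 were higher and 1 was lower (median -0.18). The called shares were 30.4% and 12.0%, against 20.8% of all genes. Without restricted wild-type library 1, 2 glycolysis genes were higher. Without restricted wild-type library 2, 4 gluconeogenesis genes were higher, and the lower one was lost without mutant library 1 or 4. Gys2, liver glycogen synthase, was higher by 1.06 ± 0.20. Pck1, the gatekeeper of gluconeogenesis, was 1650, 1168, 1062 and 2102 CPM against 56.2, 1136, 519 and 480 CPM. Restricted wild-type library 2 overlapped the mutant and the difference of 1.45 ± 0.54 did not pass (edgeR adjusted p = 0.0608), while it did without that library (2.08, adjusted p = 0.0113), in the replicate block on 24 libraries (0.0467) and by DESeq2 (0.0132). G6pc, glucose-6-phosphatase, was 98.8 to 146 CPM against 107 to 275 CPM (-0.56 ± 0.52, adjusted p = 0.472). Ppargc1a, a coactivator of fasting genes, was 3.28 to 5.47 CPM against 3.75 to 9.53 CPM (-0.73 ± 0.39, adjusted p = 0.187). Pdk4, which blocks pyruvate oxidation, was 2.45, 4.33, 3.49 and 2.42 CPM against 4.18, 3.30, 6.87 and 21.4 CPM (-1.49 ± 0.54, adjusted p = 0.0521). It passed under 5 alternatives, among them without restricted wild-type library 1 (0.0319) or 2 (0.0219) and by DESeq2 (0.0215). The size of the difference rested on restricted wild-type library 4, without which it was -0.59 (adjusted p = 0.42).

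Among amino acid and urea cycle genes 10 of 44 were higher and 7 lower (median 0.00), with 5 higher without mutant library 2 and 6 without mutant library 4. Hal, which degrades histidine, was lower by 1.04 on the log2 scale. Csad, an enzyme of taurine synthesis, was 8.37, 13.2, 12.4 and 15.7 CPM in the mutant and 196, 83.6, 43.7 and 26.9 CPM in the restricted wild type (-2.82 ± 0.50, edgeR adjusted p = 0.000393), or -2.05 without restricted wild-type library 1. In the replicate block on 8 libraries it did not pass (adjusted p = 0.0795). Of 24 glucocorticoid-responsive genes 3 were lower and none higher, or 1 higher without mutant library 4 or restricted wild-type library 2. The lower share was 12.5%, against 9.36% of all genes called lower. The lower ones included Gadd45b (-2.22 ± 0.61), a growth arrest gene, and Hsd11b1 (-0.69 ± 0.13), which regenerates active glucocorticoid. Thyroid hormone targets gave 2 of 15 higher and 2 lower, with 4 higher without restricted wild-type library 2 and 1 lower without mutant library 3 or 4. Their called share was 26.7%, against 20.8% of all genes. Hr, the corepressor hairless, was 4.66, 7.69, 7.62 and 7.50 CPM against 0.569, 0.215, 0.321 and 0.570 CPM (3.97 ± 0.48). Dio1, the deiodinase that makes active thyroid hormone, was 44.9, 34.8, 39.6 and 52.9 CPM against 7.31, 51.7, 26.5 and 20.8 CPM. Its difference of 0.70 ± 0.41 (adjusted p = 0.232) passed without restricted wild-type library 2 (1.24, adjusted p = 0.0285).

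Cytosolic heat shock genes were lower in 6 of 26 and higher in none (median -0.44), led by the cochaperones St13 (-0.42 ± 0.10) and Hspa4l (-1.20 ± 0.29) and the immunophilin Fkbp4 (-0.79 ± 0.20). St13 did not pass in the fits to the 8 libraries (edgeR adjusted p = 0.0608, and 0.0928 with the block). Hspa1a, the inducible HSP70, was 64.5, 40.8, 46.6 and 34.7 CPM in the mutant and 205, 162, 36.3 and 151 CPM in the restricted wild type. Library 3 of the latter lay inside the mutant range, and the difference of -1.57 ± 0.66 did not pass (adjusted p = 0.0935) except without that library (-1.89, adjusted p = 0.0427). Genes of the endoplasmic reticulum chaperones and unfolded protein response were higher in 4 of 43 and lower in none (median 0.08), a share of 9.3% against the 11.4% of all genes called higher. Without restricted wild-type library 3 the higher calls were 13, and without mutant library 1 or restricted wild-type library 1 or 2 there were 1 or 2 lower calls. Hspa5, the chaperone BiP, was 1610, 873, 1591 and 1085 CPM against 1005, 1179, 2774 and 2875 CPM (-0.60 ± 0.31, adjusted p = 0.174). Hsp90b1, its partner GRP94, was 1131, 777, 1235 and 959 CPM against 807, 997, 2455 and 1953 CPM (-0.60 ± 0.26, adjusted p = 0.0986). In both, restricted wild-type libraries 3 and 4 stood above all others and libraries 1 and 2 within the mutant range. Hsp90b1 passed without restricted wild-type library 1 (-0.81, adjusted p = 0.0168) or 2 (-0.77, adjusted p = 0.0359). Edem2, of the degradation pathway for misfolded glycoproteins, was higher by 0.68 ± 0.16, and Sec61b, of the translocation channel, by 0.72 ± 0.16.

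NRF2 targets, which detoxify oxidants and electrophiles, were higher in 8 of 29 and lower in 4 (median 0.09), or lower in 2 without mutant library 3 or 4. Gstp1, a glutathione transferase that is male-biased, was 1360, 1027, 989 and 1280 CPM in the mutant and 537, 224, 254 and 192 CPM in the restricted wild type (a log2 difference of 1.95 ± 0.28, edgeR adjusted p = 2.58e-05). Ephx1, microsomal epoxide hydrolase, was higher by 1.54 ± 0.23, and Cbr1, a carbonyl reductase, lower by 0.90 on the log2 scale. Genes that ATF4 induces when amino acids run short were higher in 6 of 29 and lower in 4. Those counts became 3 higher without mutant library 2, 3 or 4 or restricted wild-type library 2 or 4, and 2 lower without mutant library 3 or 4 or restricted wild-type library 1. Atf5, a transcription factor of that response, was 99.0, 150, 132 and 136 CPM against 409, 299, 394 and 223 CPM (-1.36 ± 0.24), while Mthfd2, of mitochondrial folate metabolism, was higher by 2.07 ± 0.39.

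Ribosomal protein genes differed little between the 2 groups, with 5 of 79 lower and none higher (median -0.23). The count depended on single libraries: 26 without mutant library 1, 15 without restricted wild-type library 3, 2 without mutant library 4 and 1 without mutant library 2 or 3 or restricted wild-type library 4. Rps6 was 316, 225, 253 and 240 CPM in the mutant and 319, 304, 273 and 383 CPM in the restricted wild type (-0.31 ± 0.12, edgeR adjusted p = 0.072). It passed without mutant library 1 (-0.42, adjusted p = 0.0167) or restricted wild-type library 3 (-0.38, adjusted p = 0.0332). Set against the freely fed wild type, where Rps6 averaged 201 CPM, 19 genes of the list were higher in the mutant (median 0.38) and 68 in the restricted wild type (median 0.62). Ribosome biogenesis gave 1 of 50 higher and 1 lower in the comparison itself, against 12 and 22 higher than the freely fed wild type in the mutant and the restricted wild type. Leaving out mutant library 4 or restricted wild-type library 3 gave 2 higher, and the lower call became 2 without mutant library 1 or restricted wild-type library 3 and 0 without mutant library 2 or 4 or restricted wild-type library 1. The ribosomal protein genes have many pseudogene copies that may share reads.

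Transcripts of the mitochondrial genome were lower in the mutant in 9 of 13 and higher in none (median -0.54), or lower in 5 without restricted wild-type library 4. Their sum was 90174 to 113772 CPM in the mutant and 115687 to 179430 CPM in the restricted wild type. The complex I subunits mt-Nd1, mt-Nd2 and mt-Nd3 were lower by 0.79, 0.71 and 0.69 on the log2 scale, and mt-Nd2 did not pass in the replicate block on 8 libraries (edgeR adjusted p = 0.0546). mt-Co1, a subunit of complex IV, was 34702, 29915, 30214 and 29477 CPM against 35690, 39158, 34074 and 48270 CPM, overlapping slightly. Its difference of -0.34 ± 0.13 (adjusted p = 0.061) passed without mutant library 1 (0.0453) or restricted wild-type library 3 (0.0344), in the replicate block on 24 libraries (0.0387) and by DESeq2 (0.0464). Leaving these transcripts and the 10 most abundant genes out of the library sizes moved the median of all genes by -0.0115. Scaling was redone in that setting to balance most genes, so this shift does not test the mitochondrial difference. Nuclear genes of oxidative phosphorylation were lower in 10 of 79 and higher in none (median -0.08), a share of 12.7% against the 9.36% of all genes called lower. The lower count was 5 without mutant library 2 or restricted wild-type library 2, 4 without mutant library 3 or 4, 6 without restricted wild-type library 4 and 16 without restricted wild-type library 3. Ndufb8 of complex I was lower by 0.57, a call lost in the replicate block on 8 libraries (adjusted p = 0.0578).

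**Figure D5:**
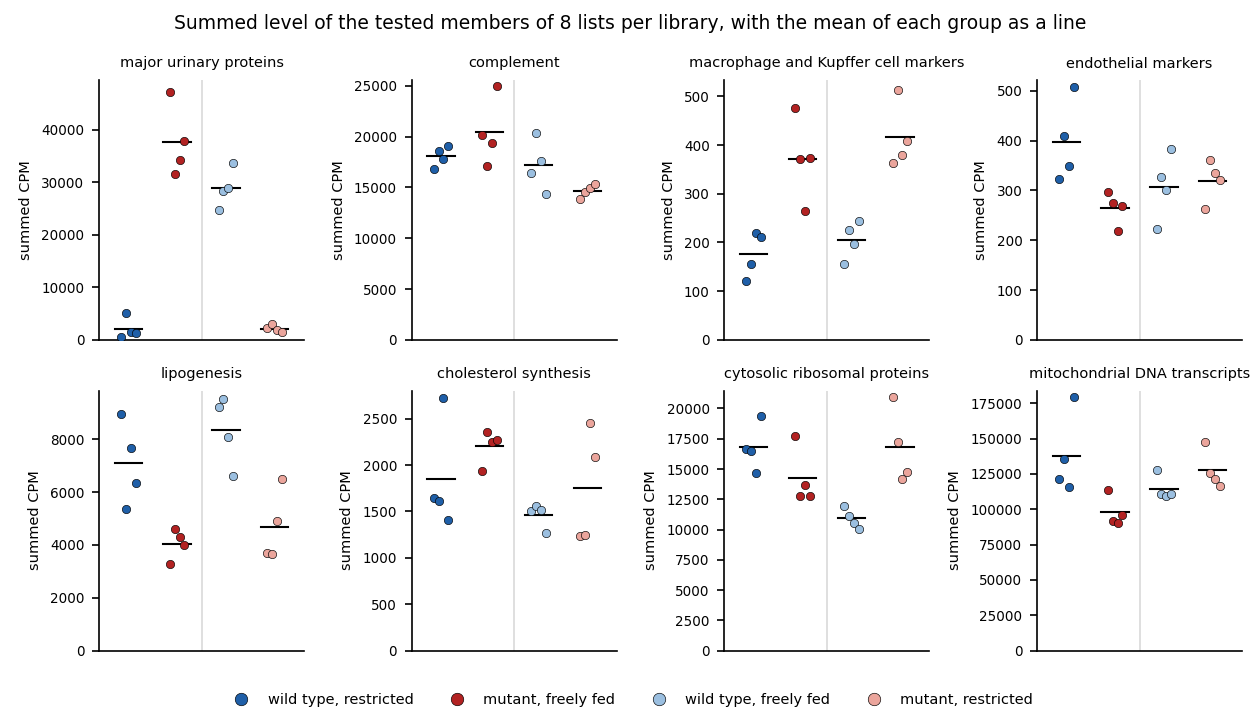
Summed CPM of the tested members of 8 lists in each library of 16 weeks, on axes from 0, with the mean of each group as a line. Major urinary proteins (31588 to 47115 CPM against 563 to 5151 CPM) and macrophage markers were higher in the freely fed mutant than in the restricted wild type without overlap, and endothelial markers, lipogenesis and mitochondrial transcripts lower; ribosomal protein sums were lowest in the freely fed wild type.

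Core clock genes were lower in 6 of 21 and higher in 4 (median -0.09). Arntl, which encodes the activator BMAL1, was 14.5, 14.3, 11.8 and 10.2 CPM in the mutant and 25, 24.5, 36.5 and 42.7 CPM in the restricted wild type (a log2 difference of -1.34 ± 0.24, edgeR adjusted p = 0.00021). Npas2, its partner, was 0.189, 0.0570, 0 and 0.0636 CPM against 3.04, 0.143, 11.3 and 4.18 CPM and overlapped through restricted wild-type library 2. Its difference of -5.75 ± 1.14 was -6.55 without mutant library 1 and -4.84 without restricted wild-type library 3. Dbp, an output transcription factor, was 9.76, 9.91, 9.62 and 14.7 CPM against 3.27, 4.23, 2.38 and 1.27 CPM (1.98 ± 0.42). Nr1d1, the repressor REV-ERBα, was 7.05, 3.59, 3.28 and 4.83 CPM against 0.332, 2.72, 1.09 and 0.95 CPM (1.94 ± 0.45), or 2.60 without restricted wild-type library 2, and did not pass in the replicate block on 8 libraries (adjusted p = 0.0638). Bhlhe40, a clock repressor, was lower by 1.09. Per1 was 27.1 to 60.4 CPM against 14.6 to 97.7 CPM (-0.39 ± 0.48, adjusted p = 0.604). Per2 was 91.6, 66.4, 88.9 and 52.7 CPM against 105, 103, 103 and 104 CPM (-0.47 ± 0.20, adjusted p = 0.0909). Mean levels of Arntl (14.1 CPM), Dbp (11.9 CPM) and Nr1d1 (3.88 CPM) in the freely fed wild type were close to those of the mutant, and the difference of the mutant from that control did not pass (adjusted p = 0.771, 0.892 and 0.747).

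Markers of position in the liver lobule were called for 40.0% of the pericentral and 42.1% of the periportal list, against 20.8% of all genes. The pericentral sums overlapped, at 8748 to 10825 CPM in the mutant and 5313 to 9826 CPM in the restricted wild type. The periportal sums did not, at 67011 to 79256 CPM and 104847 to 139777 CPM. Pericentral genes were higher in 7 of 20 and lower in 1 (median 0.36), among them Gulo, which makes vitamin C, at 563, 582, 634 and 521 CPM against 138, 207, 192 and 166 CPM (log2 fold change 1.71 ± 0.14, edgeR adjusted p = 2.42e-09). Rgn, regucalcin, was higher by 1.17 ± 0.14, and the carboxylate transporter Slc13a3 by 3.22 ± 0.41, or 4.07 without restricted wild-type library 3. Periportal genes were lower in 6 of 19 and higher in 2 (median -0.30), with the protease Ctsc at -1.36 ± 0.17 and Hal, given above, lower, and the P450 Cyp2f2 higher by 1.15 ± 0.20. Alb itself was 67478, 62805, 61913 and 52169 CPM in the mutant and 105894, 90618, 93728 and 127331 CPM in the restricted wild type (-0.77 ± 0.17, adjusted p = 0.00175).

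Endothelial markers were lower in 9 of 20 and higher in none, with a median of -0.66. Their sum was 219 to 296 CPM in the mutant, 322 to 507 CPM in the restricted wild type and 222 to 382 CPM in the freely fed wild type. The count was fragile, at 5, 3, 3 and 4 without mutant library 1, 2, 3 or 4 and 1 without restricted wild-type library 4. Dnase1l3, a nuclease of sinusoidal cells, was 10.9, 12.3, 9.19 and 11.3 CPM against 17.8, 27.8, 20.0 and 23.7 CPM (log2 fold change -1.03 ± 0.27, edgeR adjusted p = 0.00819). Pecam1, an adhesion molecule of endothelium, was lower by 0.98 and the receptor gene Gpr182 by 0.91, and neither passed without restricted wild-type library 4 (adjusted p = 0.051 and 0.0612). Of 20 stellate cell and fibroblast markers 0 were called by edgeR and 1 (lower) by DESeq2, with a median of -0.28 and sums of 277 to 514 CPM and 368 to 504 CPM. Without mutant library 1 there were 3 lower calls among them, without restricted wild-type library 1, 2 or 3 there was 1 lower call, and without library 3 also 1 higher call.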

How the data were processed

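Polyadenylated RNA of liver was sequenced by the authors, who deposited 1 table of whole-number read counts per gene for 24 libraries of 6 groups. The submitters' processing notes list featureCounts (Subread 1.6.4), STAR 2.7.0f, Trimmomatic 0.39 and the build GRCm38.p6. Not given in the sources used here were the annotation release, the strand setting and the handling of reads with several matches, so overlapping, antisense and near-identical genes may share reads. All 22429 gene identifiers of the table matched GENCODE M21, from which symbols were taken.

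The deposited counts went into edgeR 4.0.16 (R 4.3.3). Genes with enough reads by filterByExpr (12690) were scaled by TMM and fitted by the robust quasi-likelihood method with 6 group means over 24 libraries (18 residual degrees of freedom, common dispersion 0.0493), so that the spread is estimated over all groups. Genes were called at a Benjamini-Hochberg adjusted p under 0.05, adjusted over all genes tested. An SE is the log2 fold change divided by the square root of F. CPM values use TMM-scaled library sizes and are not per length, so they are not compared between genes. Ratios with 0 to 3 reads in a group use exact counting intervals, or a floor of 3 reads over the group. The procedure was tested on simulated data with 200 changed genes, otherwise equal group means and no deviating library, a simpler setting than the real data. It called 58 of 102 changes of 1 log2 unit (56.9%), 87 of 97 changes of 2 units (89.7%) and 7 of 12386 unchanged genes. Libraries within a group all differed by more than counting noise (the smallest chi-square was 11.4 times its degrees of freedom).

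The lists (51) and the groups compared were chosen with earlier results of these data known. Genes were named by rule: the 8 largest rises and falls among called genes of at least 2 CPM without overlap, the members of smallest p of each list with 3 or more called, at least 1 of them in order of p, and a fixed panel given whatever its result. Some genes that the rule names are not reported here. Oas1a, Oas1g, Gbp3, Ifit1, C3, Raet1d, Raet1e, Alas2, Cela1 and Cfd were added after their values were seen. Libraries with the same number did not deviate together (r = -0.239, 0.022, 0.1 and -0.1), so numbers were not taken as pairs. Alternatives were DESeq2 1.42.0, other scalings and filters, a replicate block, a fit to the 8 libraries and leaving out each library.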

Additional observations from a re-analysis of the deposited data

Results flagged for a closer look

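In a group of 4, a library was counted as standing apart when the gap to its nearest neighbour took up more of the whole range of log2 levels than the 95% critical value of Dixon's test, which chance gives in about 1 in 20 groups. Over the genes named by rule 33 of 322 groups (10.2%) held such a library, and 19 of them belong to genes described here. The share of the range is given for each.

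In the restricted wild type, library 1 stood apart for 5 genes. It was low for Cdkn1a (0.8388, at 5.60 CPM against 10.0 to 11.2 CPM in the others) and Ctsc (0.8611), and high for Cyp4a14 (0.8579, at 2374 CPM against 1359 to 1471 CPM), Ephx1 (0.964) and Fgf21 (0.8314, at 8.21 CPM against 1.93 to 2.47 CPM). Library 2 was high for Mup20 (0.8491, at 328 CPM against 80.7 to 99.7 CPM), low for Sqle (0.9345, at 13.9 CPM against 37.3 to 40.0 CPM) and was the one library with reads of Ckap2 (1.0). Library 3 was high for Slc13a3 (0.849) and low for Cpt1a (0.8575, at 75.6 CPM against 178 to 205 CPM), and library 4 was high for Mdm2 (0.8998).

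In the freely fed mutant, library 1 was high for Irf7 (0.8294, at 64.3 CPM against 41.0 to 44.3 CPM) and mt-Co1 (0.8487) and low for Cyp39a1 (0.8584) and Hr (0.9493, at 4.66 CPM against 7.50 to 7.69 CPM). Library 2 was high for Cyp2c29 (0.9478, at 129 CPM against 101 to 102 CPM). Library 4 was high for Dbp (0.9288, at 14.7 CPM against 9.62 to 9.91 CPM) and Gtse1 (0.8422) and low for Mogat1 (0.8954).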

How the results depend on the processing

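In place of 2635 called genes (1447 higher, 1188 lower), the fit to only the 8 libraries, which has fewer samples to estimate the spread, called 1566 (927 higher, 639 lower). A replicate block called 2669 (1489 higher, 1180 lower) with 24 libraries and 1090 (698 higher, 392 lower) with the 8 alone, although same-numbered libraries did not deviate together. With the block on 8 libraries 5 of the 22 major urinary protein genes and 4 macrophage and Kupffer cell markers, in place of 16, were called higher. Leaving out each of the 8 libraries in turn gave 2100 to 2952 called genes, 1188 to 1616 higher and 876 to 1336 lower. DESeq2 called 3000, median-ratio scaling 2634, library sizes without mitochondrial transcripts and the 10 most abundant genes 2690, no filter on low counts 2363 and a stricter filter 2600. Of the 139 called genes among those named by rule, none changed direction under any of these alternatives. Calls were lost for 7 of them without the filter, 1 in the replicate block with 24 libraries, 16 of 136 with only the 8 libraries, 31 of 136 with the block on those, and 5 to 16 on leaving out 1 library; in the other settings no named call was lost. With 4 libraries a group, the median SE over all genes was 0.22 on the log2 scale, and genes with few reads, such as the lymphoid markers, could mostly not be tested.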

Other observations

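The means of Cib3 and Tff3 were lower in the wild type than in the mutant on either diet. Cib3, a calcium and integrin binding family gene, was 11.1, 16.5, 9.33 and 11.3 CPM in the freely fed mutant and 0.0949, 0.0716, 0.449 and 0.127 CPM in the restricted wild type. Its mean was 0.241 CPM in the freely fed wild type and 6.47 CPM in the restricted mutant, and the log2 fold change of the comparison was 5.99 ± 0.60, or 6.83 without restricted wild-type library 3. Tff3, a trefoil peptide of mucous epithelia, was 6.55, 2.85, 2.42 and 7.88 CPM against 0.0949, 0, 0 and 0.127 CPM (6.19 ± 0.66), with 0.187 CPM in the freely fed wild type and 2.01 CPM in the restricted mutant. Raet1d and Raet1e, stress-induced ligands of the killer cell receptor NKG2D and near-identical copies, were higher by 2.64 ± 0.37 and 2.55 ± 0.41. Raet1d was 15.2, 17.2, 15.5 and 12.0 CPM in the freely fed mutant, 1.95, 3.30, 2.50 and 1.90 CPM in the restricted wild type and 4.19 to 18 CPM in the freely fed wild type, whose highest library stood above each freely fed mutant.

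Lysosome and autophagy genes were higher in 7 of 33 and lower in 1 (median 0.01), with 4 higher without mutant library 3 or restricted wild-type library 4. Their called share was 24.2%, against 20.8% of all genes. The lower call became 0 without mutant library 1 or 2 or restricted wild-type library 1 or 2, and 2 without restricted wild-type library 3. Translation factors were lower in 6 of 39, or in 2 without mutant library 2 or 3 and in 3 without mutant library 4 or restricted wild-type library 1 or 4. The 6 were 15.4% of the list, against 9.36% of all genes called lower. Without restricted wild-type library 1 there was also 1 higher call. Eif4g2, an initiation factor, was 446, 432, 459 and 440 CPM against 544, 621, 596 and 708 CPM (-0.48 ± 0.10) and did not pass in the replicate block on 8 libraries (edgeR adjusted p = 0.096). Of 22 tested immediate-early genes 2 were higher and 1 lower (median 0.0), a called share of 13.6% against 20.8% of all genes. Leaving out 1 library at a time gave 0 to 2 higher and 1 to 2 lower. Btg2 was higher by 2.87 ± 0.94 (adjusted p = 0.0357), a call lost without any 1 library other than mutant library 3. Klf10, a growth factor-induced repressor, was 5.79, 7.18, 10.1 and 8.45 CPM against 33.7, 26.4, 23.1 and 25.7 CPM (-1.79 ± 0.22).

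Most markers of tissue next to the liver had few or no reads, apart from Cela1. Of 11 pancreatic acinar markers 2 could be tested, and Prss1, Prss2, Cpa1, Cpb1 and Pnlip had 0 reads in both groups. Cela1 was 19.5, 17.2, 20.2 and 15.1 CPM in the mutant and 1.52, 4.51, 6.29 and 3.80 CPM in the restricted wild type. The 2 tested members summed to 9.64 to 13.0 CPM in the freely fed wild type and 4.26 to 6.87 CPM in the restricted mutant. Where the Cela1 reads came from was not tested. Of 6 adipocyte markers 1 could be tested, Cfd, with 18 reads over the mutant libraries and 1 over the restricted wild type, which DESeq2 called and edgeR did not. Plin1 had 0 reads in the mutant and 6 in the restricted wild type, Cidea 7 and 4, Retn 2 and 0, Adipoq 1 and 0, and Lep 0 in both. Erythroid markers summed to 357 to 733 CPM and 368 to 823 CPM, against 1258 to 2287 CPM in the freely fed wild type. Of the 5 tested 1 was called higher in the mutant and none lower, with a median log2 fold change of -0.28 (-0.47 to 3.36). Alas2, of heme synthesis in red cells, was 101, 123, 14.2 and 19.4 CPM in the mutant and 8.11, 5.66, 5.14 and 6.08 CPM in the restricted wild type.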
